A study of Mnemiopsis leidyi with 50 samples.

Results

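Single embryos of the ctenophore *Mnemiopsis leidyi* at 17 and 18 hours post fertilization (hpf) were compared with embryos at 19 and 20 hpf, the last 4 hours of a time course that ran to 20 hpf. The comparison took 14 of the 50 embryos of the series, 8 in the earlier window (4 at 17 hpf and 4 at 18 hpf) and 6 in the later one (3 at 19 hpf and 3 at 20 hpf), chosen by the hour given in their labels. Both other embryos of these hours stayed out: 20 hpf replicate 1, whose reads were assigned as in the libraries of the earlier hours, and 19 hpf replicate 3, which held 134806 counts. The labels name no treatment, strain or genotype, and age was the only stated difference between the windows. Each library was made from the total RNA of 1 whole embryo by CEL-Seq, which tags 3′ ends, and the values are counts per protein model of the ML2.2 set, given below as counts scaled to 1000000 counted reads of the embryo (CPM). In whole embryos, fewer cells of a type and less RNA per cell cannot be told apart. Replicate numbers follow the order of the records. The embryo numbers in the labels run through the hours in 4 consecutive runs, which no source explains and which were not used to pair embryos. No source states if 1 spawning or several gave the embryos of each hour, so p-values measure the spread between these embryos.

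In *M. leidyi* the embryo develops into a cydippid larva, which catches prey with branched tentacles that grow from a pair of tentacle bulbs. The tentacles carry colloblasts, sticky cells known only from ctenophores, with which the animal holds what it catches. The study listed candidate genes for these cells by their absence from relatives that lack the trait: colloblast candidates are missing from *Beroe* and *Haeckelia*, and tentacle candidates are missing from *Beroe* alone. These lists did not rest on the embryo counts. Candidates that the study's supplement lists with an InterProScan record were followed here, 161 for colloblasts and 144 for tentacles, under their ML2.2 identifiers. The complete lists are longer and were not used, so the 305 candidates below are those with a record. No sequence is shown because the reference table used here held none of these identifiers.

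The embryos differed in depth, and depth differed between the windows. Total counts ran from 564549 to 1085575 at 17-18 hpf, with a mean of 842682 ± 160107 (SD, n = 8), and from 278730 to 801306 at 19-20 hpf, with a mean of 505715 ± 213657 (SD, n = 6). The difference passed a two-sided exact permutation test over the 3003 splits of the embryos (p = 0.00633, adjusted over 5 measures p = 0.0316). Depth therefore cannot be told apart from age in the counts as deposited. After thinning every embryo to 278730 counts, 8704 to 10121 models were detected in the earlier window and 8510 to 10178 in the later (exact permutation p = 0.314, adjusted p = 0.785). The shares of reads not aligned, of ambiguous reads and of counts in the 10 most abundant models gave adjusted p of 0.937, 0.961 and 0.961 in the same test.

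A few embryos stood apart. In 18 hpf replicate 3, 78.4% of the reads were not aligned, against 55.4% to 64.6% in the other 13 embryos. The shallow 19 hpf replicate 1 (278730 counts) lay alone at the end of the second principal component. Both 19 hpf replicate 2 (323646 counts) and 20 hpf replicate 4 (357593 counts) lay at the end of the first. The windows did not separate on either component. Spearman's rho between embryos had a median of 0.818 over the 28 pairs within 17-18 hpf, 0.773 over the 15 pairs within 19-20 hpf and 0.793 over the 48 pairs between the windows. Pairs between 17 and 20 hpf had a median of 0.818 (n = 12), and pairs of the same hour a median of 0.821 (n = 18). By this description an embryo was about as similar to embryos 3 hours away as to those of its own hour. For some results below the value without a single embryo is therefore also given.

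**Figure D1:**
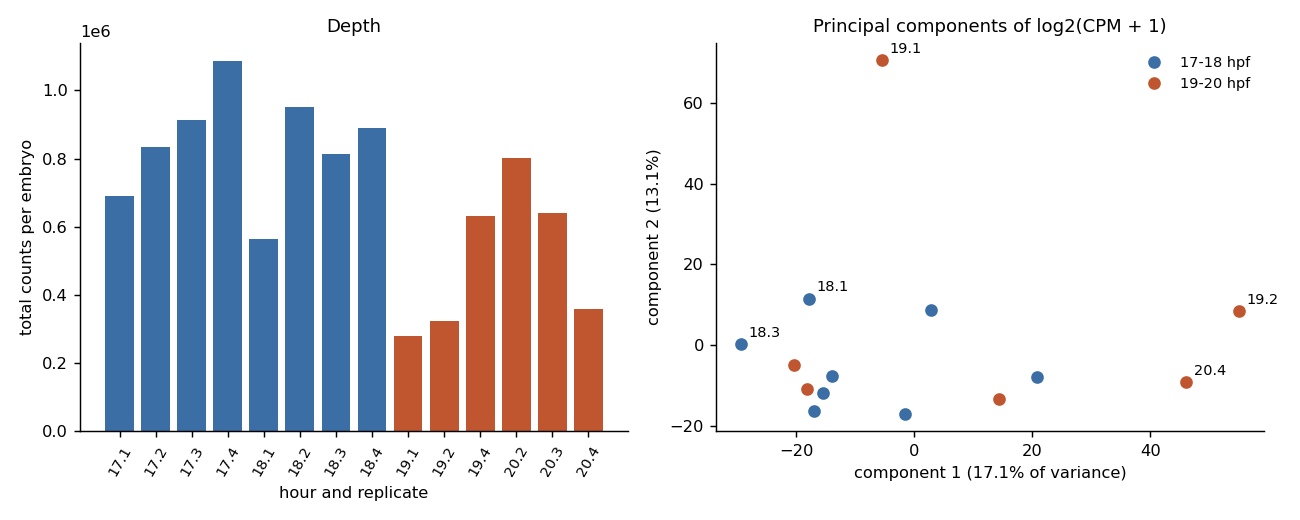
Total counts in each of the 14 embryos (left, bars from 0, hour and replicate on the x axis) and the embryos on the first and second principal components of log2(CPM + 1) (right). The 3 embryos under 400000 counts are all from 19-20 hpf and lie at the ends of the components, while the other embryos of both windows are mixed.

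Between the windows, no protein model passed the test. Of the 6239 models with enough counts, 0 rose and 0 fell at an adjusted p under 0.05 in edgeR's quasi-likelihood test (0% of those tested), and the smallest adjusted p was 0.221. At an unadjusted p under 0.05 there were 358 models (5.74%), 218 higher at 19-20 hpf (3.49%) and 140 lower (2.24%). Limma voom called 0 (306 at an unadjusted p under 0.05). With all embryos thinned to 278730 counts, edgeR called 0 of 3844 models. DESeq2 called 5, of which 4 were higher and 1 was lower at 19-20 hpf, or 0.150% of the 3329 models for which it gave an adjusted p. With no filter beyond 1 count, edgeR called 2 of 14604 models (0.0137%). None of these calls was a colloblast or tentacle candidate. The CPM of the windows did not overlap for 7 of the 6239 models (0.112%), 3 higher (0.0481%) and 4 lower (0.0641%) in the later window, and for 0 of the 96 candidates tested.

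The spread between embryos set how small a difference could be seen. Over all models tested the median interval of the log2 fold change (95%) reached 0.70 to either side, or 1.62-fold, and over the candidates it reached 0.81, or 1.75-fold. For 3359 of the 6239 models (53.8%) and for 38 of the 96 candidates (39.6%) the whole interval lay within a 2-fold change in either direction. For the other candidates a change of 2-fold was inside the interval. The common biological coefficient of variation estimated in the fit was 39.8%.

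Among the candidates, 0 of 56 colloblast candidates and 0 of 40 tentacle candidates that passed the filter on low counts passed the test. Their median log2 fold change was 0.04 for the colloblast candidates and 0.02 for the tentacle candidates, beside 0.00 over all models tested. Higher fitted values at 19-20 hpf were found for 33 of the 56 and 22 of the 40, and over all models for 3124 of 6239. At an unadjusted p under 0.05 there were 2 colloblast and 2 tentacle candidates, all 4 higher in the later window, or 4.17% of the candidates tested beside 5.74% of all models. The share of the candidates was no larger than that of all models. A model that is high in 1 window only can pass the filter through that window, so these counts do not stand for the whole lists.

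The remaining 209 of the 305 candidates were not tested in the fit with the filter on low counts. Where a model is called not tested or too low to test, that fit is meant. Of these 209 candidates, 23 had no count in any of the 14 embryos, and the other 186 had a median level of 3.00 CPM, with the highest mean at 14.5 CPM. Those 186 entered the fit without a filter, and none of them was called there. Summed over these low models, the level was 586 to 988 CPM in the earlier window (median 716) and 541 to 948 CPM in the later (median 706). The ranges overlapped almost completely. A count of 0 allows up to 10.8 CPM in the shallowest embryo and up to 0.445 CPM over all 17-18 hpf embryos together, a limit that covers counting error only.

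**Figure D2:**
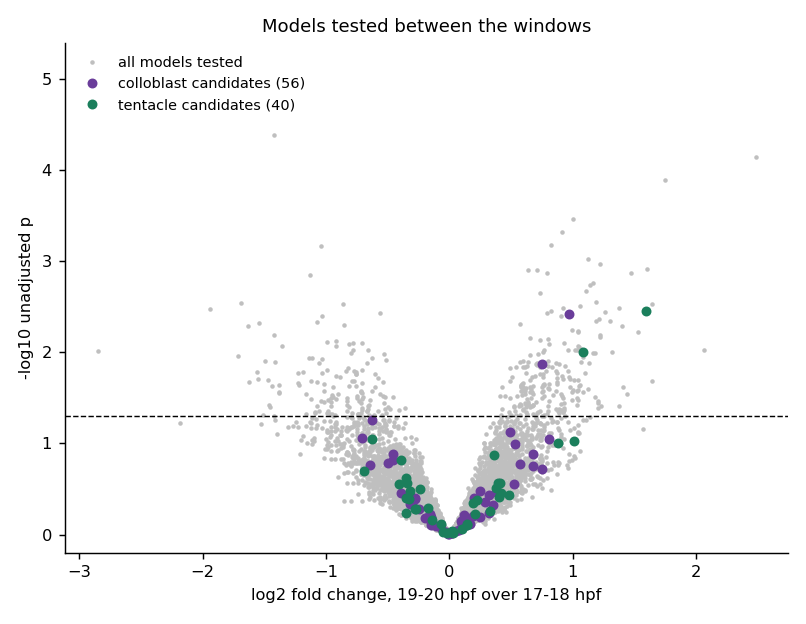
Log2 fold change (19-20 hpf over 17-18 hpf) against the unadjusted p (as -log10) for the 6239 models tested, with the 56 colloblast and 40 tentacle candidates in colour. The dashed line marks an unadjusted p of 0.05, and only 4 candidates, all higher at 19-20 hpf, lie above it.

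Summed over each list, the level of the candidates had overlapping ranges in the windows, and no test was made on the sums. The colloblast candidates together held 3465 to 5151 CPM at 17-18 hpf (median 4104) and 3232 to 5373 CPM at 19-20 hpf (median 4883). The later embryos with 5188, 5217 and 5373 CPM lay above every earlier embryo, and 19 hpf replicate 4 (3232 CPM) lay below every one. The tentacle candidates held 2237 to 2723 CPM (median 2437) and 2095 to 2753 CPM (median 2556). In both lists the later range was the wider. Within the earlier window the 4 embryos at 18 hpf had 4104 to 5151 CPM of colloblast candidates and those at 17 hpf 3465 to 4104 CPM.

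A single model made up much of the first sum. ML003220a, which matches histone H5, a linker histone of a family that binds chromatin, had the highest mean of any candidate (973 CPM). This model, like the others named here for their level or their spread, was chosen after its values were seen. Its CPM ran from 505 over a median of 919 to 1401 at 17-18 hpf and from 405 over 1214 to 1313 at 19-20 hpf, so the windows overlapped (log2 fold change 0.25, SE 0.26, adjusted p = 0.926). The 4 embryos at 17 hpf (505 to 908 CPM) all lay below the 4 at 18 hpf (929 to 1401 CPM). In that step the log2 fold change was 0.84 (edgeR unadjusted p = 0.0105, adjusted p = 0.538). The share of all models tested whose single hours did not overlap was not counted. Such separations of few embryos, here and below, are therefore given as values only. The low value of the later window, 405 CPM, was that of 19 hpf replicate 4.

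Of the other abundant candidates, ML02667a matches glutathione-specific gamma-glutamylcyclotransferase, an enzyme family that breaks down glutathione. It had 222 to 498 CPM in the earlier window (median 353) and 213 to 539 CPM in the later (median 491). The fitted log2 fold change was 0.19 (95% interval -0.32 to 0.69). Tetraspanin ML010519a, from a family of 4-pass membrane proteins that organize other membrane proteins, had 154 to 377 CPM and 120.2 to 389 CPM (medians 206 and 203). The papain-like cysteine protease ML15994a had 85.4 to 217 CPM and 108 to 237 CPM (medians 149 and 146). Neither showed a direction, with log2 fold changes of 0.02 and 0.09 and intervals that stayed within a 2-fold change.

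The candidate with the smallest p was ML13917a, a tentacle candidate that matches the catalytic barrel of phosphatidylinositol-specific phospholipase C, an enzyme that cleaves membrane lipids. At 17-18 hpf its level ran from 5.53 over a median of 14.2 to 52.5 CPM, and at 19-20 hpf from 6.33 over 66.2 to 95.1 CPM. In 5 of the 6 later embryos it was above the earlier median, and in 4 it was above every earlier embryo, while 19 hpf replicate 4 (6.33 CPM) lay among the lowest. The log2 fold change was 1.59 (SE 0.48, 95% interval 0.58 to 2.59), with an unadjusted p of 0.00347 and an adjusted p of 0.710 in edgeR, so the difference did not pass. By hour the mean was 9.12 ± 2.76 (SD, n = 4), 32.0 ± 16.9 (n = 4), 38.4 ± 28.1 (n = 3) and 82.2 ± 11.3 CPM (n = 3). The embryos at 17 hpf and at 18 hpf did not overlap, nor did those at 18 hpf and at 20 hpf. How often this held over all models was not counted. Without 17 hpf the log2 fold change of the windows was 0.97, and without 18 hpf it was 2.70 (adjusted p = 0.104). Over 32 alternative fits the log2 fold change ran from 0.88 to 2.70 and the adjusted p from 0.104 to 0.998. In the embryos that stayed out the level was 28.0 CPM in 20 hpf replicate 1 and 66.8 CPM in 19 hpf replicate 3.

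Carbonic anhydrase ML01591a, a colloblast candidate from the enzyme family that interconverts carbon dioxide and bicarbonate, had 13.5 to 39.4 CPM in the earlier window (median 22.5) and 25.2 to 72.8 CPM in the later (median 44.1). All 6 later embryos were above the earlier median, and the windows overlapped between 25.2 and 39.4 CPM. Between the windows the log2 fold change was 0.97 (SE 0.30, 95% interval 0.35 to 1.59, edgeR unadjusted p = 0.00383, adjusted p = 0.710). The embryos at 18 hpf (13.5 to 30.1 CPM) and at 19 hpf (35.9 to 72.8 CPM) did not overlap. That step did not pass either (log2 fold change 1.32, edgeR adjusted p = 0.825), and how often hours separated over all models was not counted. In the embryos that stayed out the level was 54.4 CPM in 20 hpf replicate 1 and 7.42 CPM in the shallow 19 hpf replicate 3. At 13 to 16 hpf it was 10.0 to 62.9 CPM (median 32.2), given with no test. The second carbonic anhydrase on the list was tested with a log2 fold change of 0.15.

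ML14247a, a tentacle candidate with von Willebrand factor type D, Kazal and immunoglobulin-like domains, showed a similar spread of values. The von Willebrand factor type D domain occurs in large secreted proteins that link into fibres, and Kazal domains inhibit serine proteases. Its level was 7.24 to 48.3 CPM in the earlier window (median 32.8) and 31.2 to 139 CPM in the later (median 53.4). The log2 fold change was 1.08 (SE 0.38, 95% interval 0.29 to 1.87, edgeR unadjusted p = 0.00993, adjusted p = 0.785). The value of 139 CPM came from the shallow 19 hpf replicate 2, and the next highest embryo had 62.4 CPM. Over 32 alternative fits the log2 fold change ran from 0.53 to 1.56.

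The fourth of these candidates, ML223518a, a colloblast candidate without an annotated domain, depended on the shallow embryos. It had 286 to 603 CPM in the earlier window (median 428) and 306 to 1418 CPM in the later (median 628), with the highest value again in 19 hpf replicate 2. It had a log2 fold change of 0.75 (SE 0.28, edgeR adjusted p = 0.785), and -0.04 without the 3 embryos under 400000 counts. Those 3 embryos had 775, 1418 and 794 CPM, and the deeper embryos of 19 and 20 hpf had 306, 478 and 482 CPM.

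**Figure D3:**
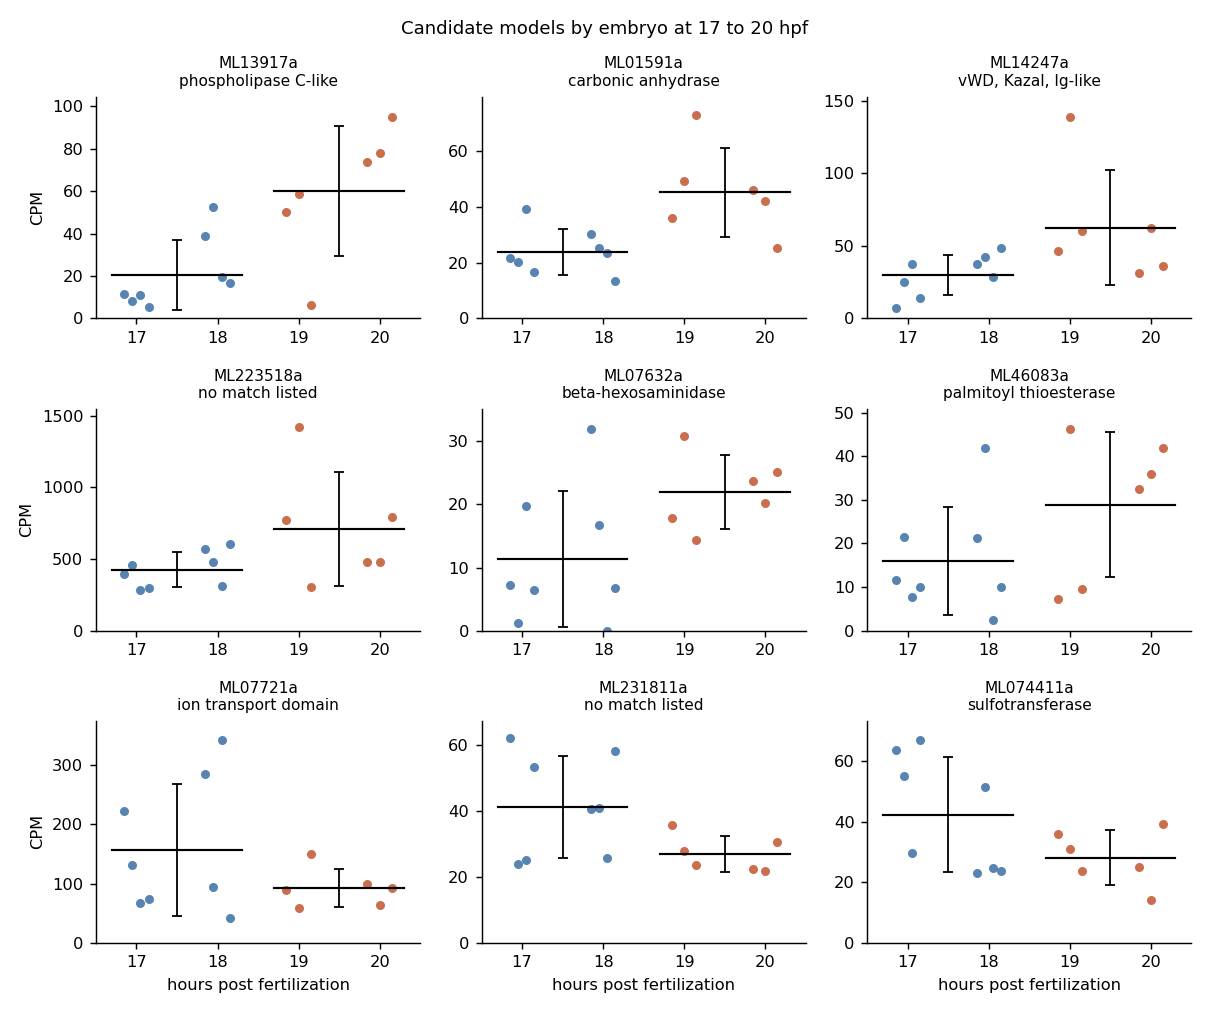
CPM of 9 candidates in each embryo (points) by hour, with the mean (line) and SD (bars) of each window in black. For ML13917a the embryos at 17 hpf lie between 5.53 and 11.6 CPM and those at 20 hpf between 73.6 and 95.1 CPM, and in every panel the windows overlap.

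The other candidates with the smallest p in the lists gave smaller or less certain differences. Beta-hexosaminidase ML07632a, which belongs to a family of enzymes that remove terminal amino sugars from glycans, had 0 to 31.9 CPM in the earlier window (median 6.99) and 14.3 to 30.9 CPM in the later (median 22.0), with a log2 fold change of 1.01 (SE 0.58, edgeR adjusted p = 0.875) that was 1.70 in limma voom. All 6 later embryos were above the earlier median. Palmitoyl protein thioesterase ML46083a, of a family that removes fatty acids from proteins, had 2.46 to 42.0 CPM (median 10.9) and 7.18 to 46.3 CPM (median 34.2), with a log2 fold change of 0.88 (SE 0.51, edgeR adjusted p = 0.882). The BAR domain model ML04829a, a domain that senses or bends membranes, had 82.9 to 246 CPM (median 144) and 134 to 346 CPM (median 186). Its log2 fold change was 0.49 and its interval ended at 1.02.

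Lower in the later window were ML07721a, ML231811a and ML074411a, again without passing. ML07721a, with the ion transport domain of cation channels, had 41.5 to 342 CPM at 17-18 hpf (median 113) and 58.7 to 150.4 CPM at 19-20 hpf (median 91.0). The 3 earlier embryos at 223, 285 and 342 CPM were above all later ones, and the other 5 were within the later range or below it. Between the windows this was a log2 fold change of -0.71 (SE 0.40, edgeR adjusted p = 0.874). For ML231811a, a colloblast candidate with no domain match, the level was 24.0 to 62.2 CPM (median 40.9) and 21.8 to 35.9 CPM (median 25.8), with a log2 fold change of -0.63 and an interval that just reached past 0 (-1.27 to 0.02). The sulfotransferase ML074411a, of a family that transfers sulfate to sugars, proteins or lipids, had 23.0 to 67.2 CPM (median 40.5) and 14.0 to 39.2 CPM (median 27.9). The fit gave it the same log2 fold change of -0.63 (95% interval -1.37 to 0.10).

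**Figure D4:**
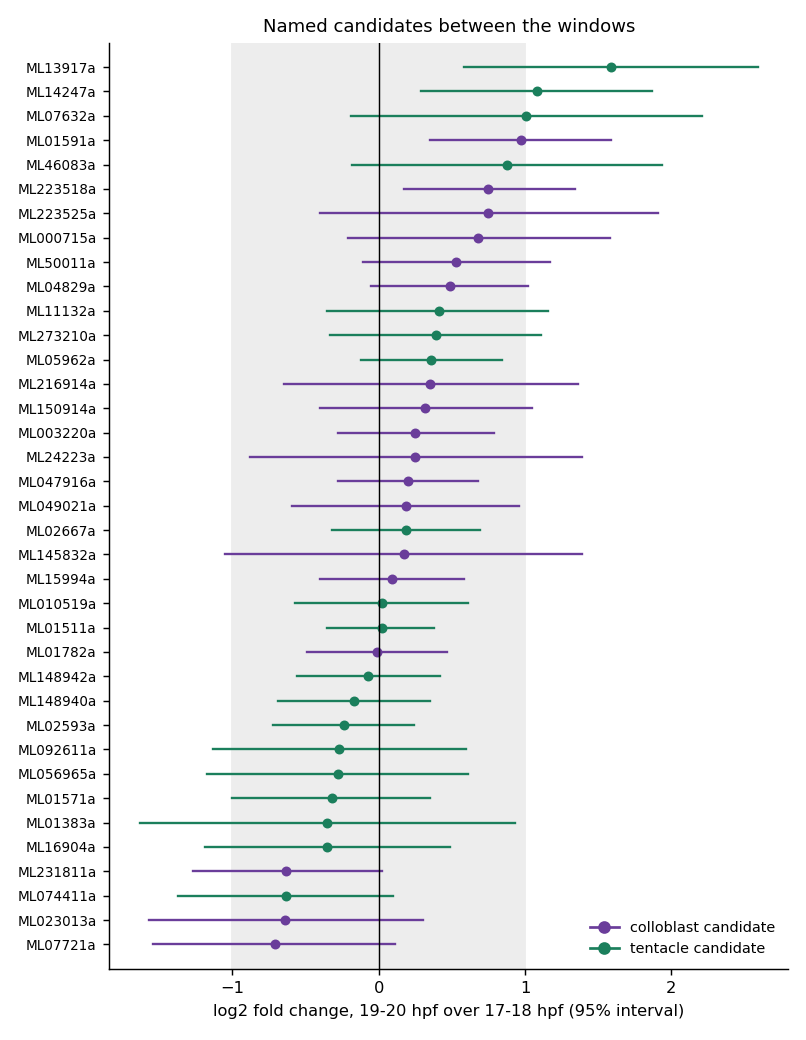
Log2 fold change (19-20 hpf over 17-18 hpf) with its 95% interval for the named candidates that were tested, colloblast candidates in purple and tentacle candidates in green. The grey band marks less than a 2-fold change. The intervals of ML13917a, ML14247a, ML01591a and ML223518a leave out 0, and no adjusted p was under 0.710.

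Grouped by domain, no family held a member that passed. Candidates were sorted into 29 families, with some in more than 1 family and others, such as ML003220a and ML223518a, in none. Of the 29 families, 16 had at least 2 members tested, 9 had 1 and 4 had none. The 8 immunoglobulin-like models tested of 23 had log2 fold changes from -0.46 to 1.08 (median 0.37), with 1 at an unadjusted p under 0.05. All 3 von Willebrand factor type D models tested of 7 had higher fitted values later (0.52 to 1.08), and 1 of them had an unadjusted p under 0.05. Over all models 50.1% had higher fitted values later and 5.74% an unadjusted p under 0.05, and nothing particular to these small families is read from their counts. Immunoglobulin and von Willebrand families share models such as ML14247a and ML223525a, so these are not separate results.

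Among the von Willebrand models 1 rested on a single embryo. The colloblast candidate ML223525a had 4.38 to 21.3 CPM in the earlier window (median 13.4) and 4.68 to 74.4 CPM in the later (median 10.3), and 74.4 CPM belonged to 19 hpf replicate 4 alone. Its log2 fold change of 0.75 became -0.43 without that embryo (edgeR adjusted p = 0.991). Another, ML14246a, was too low to be tested. It had 4.38 to 8.98 CPM in the earlier window (median 6.76), and 0 to 6.24 CPM in the later (median 1.58), where the 3 shallow embryos were at 0 and each could hold up to 8.39 to 10.8 CPM.

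The families of channels and enzymes held few tested members. The 3 ion channel models tested of 20 had log2 fold changes from -0.71 to -0.07, and the 6 transporters tested of 14 had -0.02 to 0.35. The 3 sulfotransferases tested of 12 had -0.63 to 0.12. The 3 glutaredoxin or glutathione transferase models, of families that act on thiols, had 0.10 to 0.68. The cytochrome P450 models tested, members of a family of heme oxygenating enzymes, had -0.15 and 0.19. The 3 tetraspanins tested had -0.25 to 0.02, and 2 of the 3 had intervals within a 2-fold change.

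In a few families 1 hour decided the value of a model. The MACPF model ML24223a, with the domain of pore-forming proteins such as perforin, had 2.19 to 35.9 CPM at 17-18 hpf (median 12.2) and 8.39 to 24.7 CPM at 19-20 hpf (median 13.8). The 4 embryos at 17 hpf (2.19 to 10.8 CPM) lay below the 4 at 18 hpf (13.5 to 35.9 CPM), with a log2 fold change of 2.08 (edgeR unadjusted p = 0.00296, adjusted p = 0.414). Between the windows it was 0.25, and -0.44 without 17 hpf. The ABC transporter ML216914a had 7.38 to 18.0 CPM and 0 to 41.2 CPM (medians 11.9 and 14.2), with a log2 fold change of 0.35, and -0.77 without 20 hpf.

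The study had grouped candidates by their course over the embryos, so the clusters were chosen on these samples and their direction is not independent evidence. Of the 62 models in the 4 largest clusters 50 were tested, and 0 passed. Median log2 fold changes were -0.11 and 0.10 in the first and the second colloblast cluster (18 and 11 tested) and -0.02 and 0.08 in the first and the second tentacle cluster (15 and 6 tested). In the first colloblast cluster the PAN/Apple domain model ML150914a had 61.7 to 184 CPM (median 106) and 57.7 to 395 CPM (median 101). The value of 395 CPM was that of the shallow 19 hpf replicate 1, with 162 CPM next. In the second, ML46084a had 98.6 to 429 CPM (median 282) and 176 to 686 CPM (median 267), and the glutaredoxin ML047916a had 78.8 to 127 CPM (median 99.8) and 74.4 to 216 CPM (median 96.8). Both had their highest value in 19 hpf replicate 2.

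The second tentacle cluster held ML13917a and a model of mixed course. ML05962a, with immunoglobulin and C-type lectin-like domains, of which the latter often bind sugars, had 47.8 to 106 CPM at 17-18 hpf (median 78.1) and 64.6 to 148 CPM at 19-20 hpf (median 95.7). The 3 embryos at 19 hpf had 64.6 to 76.0 CPM and the 3 at 20 hpf 115 to 148 CPM, without overlap. In that step the log2 fold change was 0.78 (edgeR unadjusted p = 0.0206, adjusted p = 0.859). ML16904a, which matches chitin binding and lipid recognition domains, had 26.1 to 168 CPM (median 87.2) and 19.0 to 108 CPM (median 67.8), and its log2 fold change was -0.35 (95% interval -1.19 to 0.49).

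Of 5 transcription factors followed by their identifiers, 3 were tested without passing and the others were too low to test. Other factors of the study were not analysed here. Nuclear receptors are factors that can be switched by small ligands, and homeobox factors pattern cell types during development. *MlNR1* (ML073417a), a nuclear receptor, had 83.9 to 178 CPM in the earlier window (median 127) and 92.3 to 229.6 CPM in the later (median 155), with a log2 fold change of 0.20 (SE 0.24, 95% interval -0.29 to 0.69). *MlPRD10a* (ML148940a), a paired class homeobox gene, had 54.9 to 89.8 CPM (median 65.8) and 33.6 to 105 CPM (median 55.9). Its log2 fold change was -0.17 (95% interval -0.69 to 0.35), so a 2-fold change in either direction lay outside the interval of both.

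*MlBsh* (ML08269a), a homeobox gene of the brain-specific class, had 12.4 to 67.7 CPM (median 37.0) and 14.0 to 45.2 CPM (median 28.9), with a log2 fold change of -0.44 (95% interval -1.23 to 0.35). The other two were under the filter and were not tested. *MlNR2* (ML305522a) had 5.48 to 19.7 CPM in the earlier window (median 9.39) and 0 to 8.39 CPM in the later (median 5.17). In the embryos at 18 hpf it had 8.41 to 19.7 CPM. All 6 later embryos were below the earlier median, and 3 were below every earlier embryo. The 0 of *MlNR2* came from 20 hpf replicate 2 (801306 counts), where it allows up to 3.74 CPM. Of the embryos that stayed out, 20 hpf replicate 1 had 14.8 CPM and 19 hpf replicate 3 had 0. Without a filter its edgeR adjusted p was 0.748. *MlIslet* (ML053012a), a LIM homeobox gene, had 3.15 to 11.1 CPM (median 5.57) and 0 to 10.9 CPM (median 4.38). The value of 0 of *MlIslet* came from the shallow 19 hpf replicate 2, where it allows up to 9.27 CPM.

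**Figure D5:**
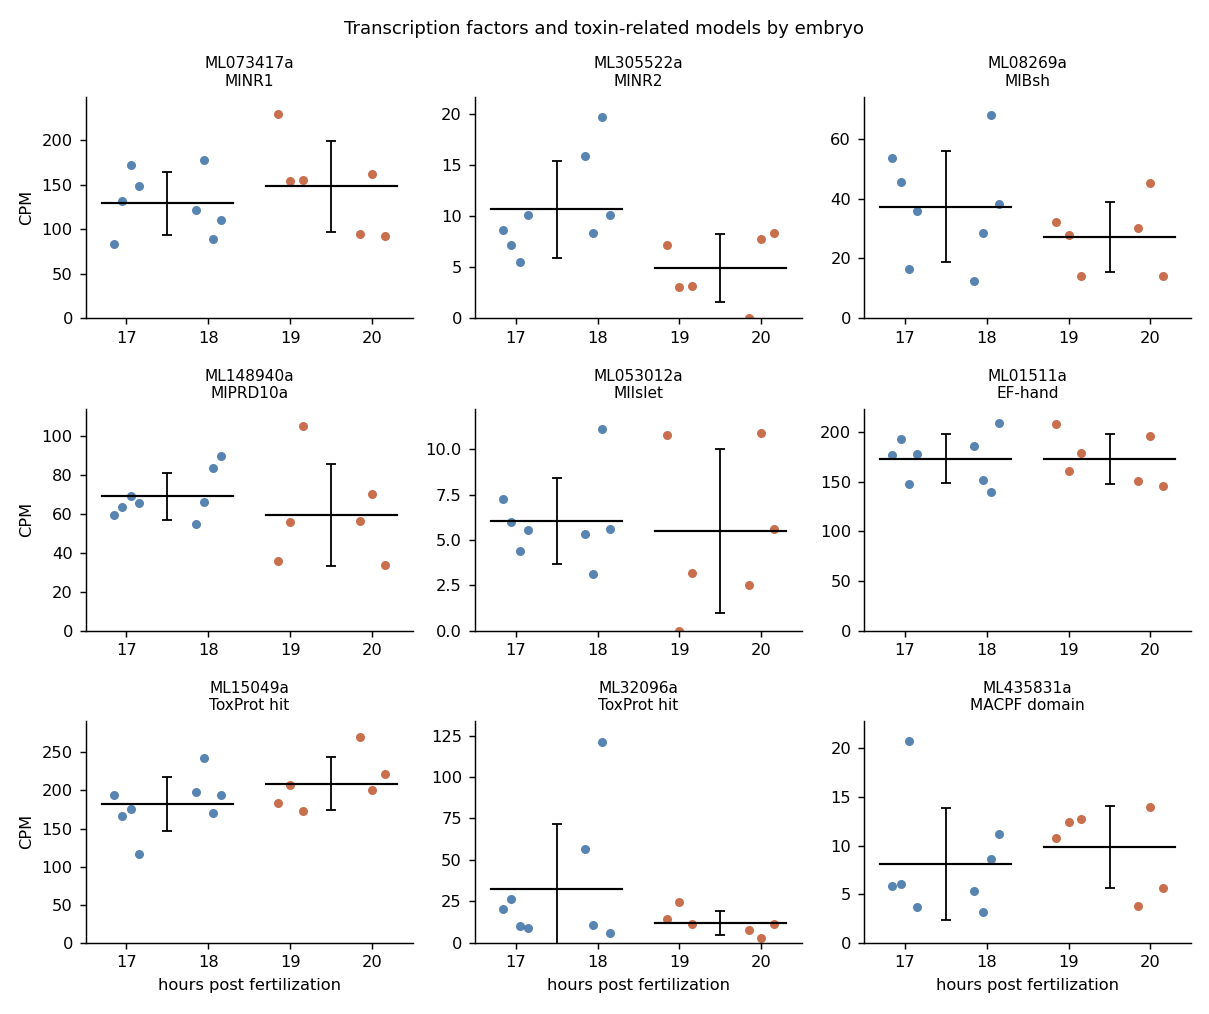
CPM by embryo and hour of the 5 transcription factors and of 4 models related to toxins, with the mean (line) and SD (bars) of each window in black. The EF-hand model ML01511a stays between 139 and 209 CPM in all 14 embryos, while ML32096a reaches 121 CPM in 1 embryo at 18 hpf and no more than 24.7 CPM at 19-20 hpf.

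Models with similarity to animal toxins or to adhesive proteins gave no call. Of the 13 candidates with a toxin hit 4 were tested, and of the 13 models of cell type C54, a putative tentacle cell type, with a hit in the ToxProt database 9 were tested, with median log2 fold changes of -0.13 and -0.03. ML01511a, an EF-hand model of the family that binds calcium, was the steadiest of all 96 candidates. Its level was 139 to 209 CPM at 17-18 hpf (median 177) and 145 to 208 CPM at 19-20 hpf (median 169.8), and the coefficient of variation over the 14 embryos was 13.8%, where counting alone would give 9.89%. The log2 fold change was 0.02 (95% interval -0.35 to 0.38). ML15049a had 116 to 242 CPM (median 185) and 173 to 269.6 CPM (median 204), with a log2 fold change of 0.22 (95% interval -0.15 to 0.59).

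ML32096a was the C54 model with the smallest p. Its level was 5.61 to 121 CPM in the earlier window (median 15.4) and 3.12 to 24.7 CPM in the later (median 11.1), and the highest values were 121 CPM in 18 hpf replicate 3 and 56.7 CPM in 18 hpf replicate 1. The log2 fold change was -1.45 (SE 0.66, edgeR unadjusted p = 0.0399, adjusted p = 0.830). It was -0.74 once the share of reads not aligned, highest in 18 hpf replicate 3, entered the fit, -2.18 without 19 hpf and -2.10 without the 3 embryos under 400000 counts. The EF-hand model ML01571a had 47.8 to 143 CPM (median 67.3) and 25.3 to 131 CPM (median 54.7), and its embryos at 18 hpf (65.2 to 143 CPM) lay above those at 19 hpf (25.3 to 55.6 CPM). In that step the log2 fold change was -1.07 (edgeR unadjusted p = 0.0265, adjusted p = 0.901). The MACPF model ML435831a was too low to be tested, at 3.15 to 20.8 CPM (median 5.90) and 3.74 to 14.0 CPM (median 11.6).

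Of the 9 adhesive hits 3 were tested, all with higher fitted values later (0.53 to 1.08), beside 50.1% of all models. The adhesive hits overlap the von Willebrand and immunoglobulin families above and are not a separate result. Besides ML14247a and ML223525a these included ML50011a, with EGF-like, lectin and immunoglobulin domains, which is also the 1 tested of 7 models in orthogroups shared with cnidocytes, the stinging cells of cnidarians. It had 34.8 to 84.4 CPM in the earlier window (median 63.6) and 36.4 to 167 CPM in the later (median 77.6). The 3 embryos above the earlier range were 19 hpf replicate 1 and 20 hpf replicates 2 and 4, with 111, 167 and 101 CPM. With this the log2 fold change was 0.53 (SE 0.31, edgeR adjusted p = 0.882).

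By hour, no single step carried calls in the edgeR fit of all embryos compared with the filter on low counts. From 17 to 18, from 18 to 19 and from 19 to 20 hpf, 0 of 6239 models passed in edgeR's quasi-likelihood test (0% in each step), with 430, 331 and 331 at an unadjusted p under 0.05 (6.89%, 5.31% and 5.31%). DESeq2 called 14, 0 and 2, and whether these were candidates is not given here. Of 26 alternatives for the hour steps, 22 called none. Neighbouring steps share the embryos of an hour. Among the 96 candidates tested there were 9, 6 and 4 at an unadjusted p under 0.05 (9.38%, 6.25% and 4.17%) and 0 that passed. Chosen after their values were seen, the ion transport model ML17746a had 23.2 to 45.6 CPM at 17 hpf and 61.5 to 117 CPM at 18 hpf (log2 fold change 1.17, edgeR adjusted p = 0.568). The ferredoxin reductase-type model ML189345a had 1.45 to 14.2 CPM at 17 hpf and 20.0 to 25.8 CPM at 18 hpf (log2 fold change 1.47, edgeR adjusted p = 0.657). Neither pair of hours overlapped, and the share of all models for which this held was not counted.

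Candidates differed in how much they varied between embryos. The values given for counting alone treat every count as an independent molecule, and no source used here states if reads were collapsed by molecular identifiers. Over the 96 candidates the coefficient of variation of CPM across the 14 embryos had a median of 48.8%, where counting alone would give a median of 22.9%. Over the 6230 models with a mean of at least 10 CPM the medians were 42.0% and 20.0%. The candidates ranged from 13.8% for ML01511a to 110.3% for ML223525a. Next to the lowest was ML01782a, with 34.0 to 63.9 CPM and 18.8%, which is the 18.9% that counting alone would give. At the other end, ML145832a, with a nucleotide-binding P-loop domain, had 3.59 to 55.6 CPM (96.5%), and the lectin-like ML01383a had 2.46 to 51.6 CPM (93.4%). The log2 fold change of ML145832a was 0.17, and -0.59 without 19 hpf replicate 2.

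The embryo that held the highest value differed from candidate to candidate. It was 18 hpf replicate 1 for 12 of the 96 candidates (12.5%) and 19 hpf replicate 2 for another 12, against 8.40% and 7.57% of all models. For 18 hpf replicate 3, with its high share of reads not aligned, it was 5 candidates (5.21%), against 11.1% of all models. The fewest were in 18 hpf replicate 2, with 3. Values of 0 among the tested candidates were most frequent in 19 hpf replicate 2, with 5, and so were values of 0 over all models tested (194, or 3.11%).

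Outside the lists, the models named are those with the smallest p in each direction, and none of them has an annotation here. Larger fitted differences of less certain models, down to a log2 fold change of -2.85, were not named. ML07322a had 1.84 to 56.1 CPM in the earlier window (median 18.2) and 21.6 to 212 CPM in the later (median 116). Its log2 fold change was 2.48 (SE 0.50, 95% interval 1.43 to 3.53, edgeR adjusted p = 0.221). ML02662a had 31.3 to 110.3 CPM (median 63.6) and 41.2 to 465 CPM (median 204), with a log2 fold change of 1.75 (SE 0.37, edgeR adjusted p = 0.265), and 5 of the 6 later embryos were above every earlier one. In the embryos that stayed out, 20 hpf replicate 1 and 19 hpf replicate 3, ML07322a had 8.24 and 74.2 CPM and ML02662a had 499.6 and 37.1 CPM. Both were lower still at 13 to 16 hpf, where 14 embryos had medians of 5.47 and 9.60 CPM, given with no test.

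Lower in the later window were ML22261a and ML149639a. ML22261a had 37.0 to 139.9 CPM (median 80.3) and 22.4 to 42.4 CPM (median 28.8), with a log2 fold change of -1.42 (SE 0.28, edgeR adjusted p = 0.221). Of the embryos that stayed out, 20 hpf replicate 1 had 34.6 CPM and the shallow 19 hpf replicate 3 had 148 CPM, above every earlier embryo. ML149639a had 39.6 to 75.2 CPM (median 46.9) and 17.4 to 32.3 CPM (median 24.8), without overlap, and a log2 fold change of -1.04 (SE 0.26, edgeR adjusted p = 0.597). With 20 hpf replicate 1 added, which had 129 CPM, the last value became -0.22. DESeq2 called ML07322a, ML02662a and ML22261a, and with them ML00554a and ML30698a, which are named after their values were seen. ML00554a had 35.0 to 90.3 CPM and 82.3 to 117 CPM, and ML30698a had 33.2 to 69.6 CPM and 63.9 to 119 CPM. In 20 hpf replicate 1 and 19 hpf replicate 3, which stayed out, ML00554a had 21.4 and 29.7 CPM, below every earlier embryo. ML30698a had 67.6 and 59.3 CPM in them, within the earlier range. At 13 to 16 hpf the medians of ML00554a and ML30698a were 51.9 and 69.4 CPM, given with no test. In edgeR their log2 fold changes were 0.91 and 1.00 with adjusted p of 0.596 and 0.534. Single embryos decided some calls in edgeR: without 18 hpf replicate 4 ML07322a (log2 fold change 2.88, adjusted p = 0.0402) and ML22261a (-1.53, adjusted p = 0.0392) passed, and without 19 hpf replicate 4 ML02662a passed (1.96, adjusted p = 0.0192). Over the alternatives the log2 fold change ran from 1.89 to 3.55 for ML07322a, from 1.21 to 2.11 for ML02662a and from -1.56 to -1.01 for ML22261a.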

How the data were processed

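The authors deposited counts per ML2.2 protein model for single embryos. According to the submitters' processing notes, base calling used CASAVA 1.8, alignment Bowtie2 2.1.0 and counting HTSeq 0.5.4p3. Not given in the sources used here are the genome build, the counting options and any collapse of molecular identifiers. Each of the 50 columns matched 1 sample by its title, and 0 columns were left without a sample. The 5 HTSeq class rows were kept out of totals and tests. For the embryos compared, not aligned reads made up 55.4% to 78.4%, reads of low quality 10.7% to 24.0%, ambiguous reads 0.740% to 2.04% and counted reads 10.2% to 22.8%.

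The members, gene lists and tests were chosen with earlier results of these data known. Counts of 8 and 6 embryos were tested in edgeR 4.0.16 (R 4.3.3) with TMM factors, filterByExpr by window and the quasi-likelihood F-test, adjusted by Benjamini-Hochberg over 6239 models at 0.05. Hour steps used 1 coefficient per hour. CPM is the count over the embryo's total. The pseudocount of 1 on the log2 scale served only for components. The same counts were also fitted with library size alone, RLE factors, DESeq2 1.42.0, limma voom 3.58.1, other filters, a covariate, thinning, added embryos and leaving out hours and embryos. Scripts were tested on simulated data. Of 16548 identifiers 0 were in the reference table of gene names.

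Models named are those the study gives by identifier with at least 10 counts, the 5 of each candidate list with the smallest p where fewer than 5 passed, in each family the member of smallest p, the 3 most abundant of each cluster and, outside the lists, 2 with the smallest p in each direction. Those that add nothing were left out. The plan to place the embryos left out by the models that passed could not be carried out, as none passed.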

Additional observations from a re-analysis of the deposited data

Results flagged for a closer look

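In 144 groups of 8 or 6 embryos the highest or lowest value was compared with the rest. In 22 it stood off by a gap that chance gives in about 1 in 20 groups of normally distributed values. CPM of low counts need not follow that distribution, so 22 is not read as an excess. At 17-18 hpf the highest CPM stood apart for ML01383a (51.6 in 17 hpf replicate 4, next 23.2), ML35385a (10.1 in the same embryo, next 3.29), ML023013a (40.5 in 17 hpf replicate 1), ML10468a (4.38 in 17 hpf replicate 3) and ML435831a (20.8 in 17 hpf replicate 3). At the same ages it stood apart in 18 hpf replicate 1 for ML01786a (23.0), ML10592a (62.0) and ML154123a (5.31), and in 18 hpf replicate 3 for ML064935a (119) and ML32096a (121).

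At 19-20 hpf the shallow 19 hpf replicate 2 stood apart for ML047916a (216 CPM), ML14247a (139 CPM), ML145832a (55.6 CPM) and ML46084a (686 CPM). The other shallow embryos did so for ML150914a (395 CPM) and ML35385a (3.59 CPM) in 19 hpf replicate 1 and for ML10468a (5.59 CPM) in 20 hpf replicate 4. Without any count of a model, 19 hpf replicate 1 could still hold up to 10.8 CPM and 20 hpf replicate 4 up to 8.39 CPM. The values of ML35385a and ML10468a lie under these limits, so they are not read as embryos that differ. In 19 hpf replicate 4 ML223525a was high (74.4 CPM, next 16.2) and ML000715a, a glutaredoxin, low (4.75 CPM, next 28.0). In 20 hpf replicate 3 ML01571a was high (131 CPM, next 57.4).

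Among the library measures, 18 hpf replicate 3 stood apart by its 78.4% of reads not aligned (next 64.1%) and by its 0.740% of ambiguous reads (next 1.72%).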

How the results depend on the processing

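Of 32 alternatives, 28 called 0 models between the windows and all 32 called 0 candidates, with 187 to 502 models at an unadjusted p under 0.05 in the fits other than the one without a filter (1075). DESeq2 called 5 models, and edgeR without a filter beyond 1 count called 2 of 14604. Leaving out each embryo in turn gave 0 to 2 (2 without 18 hpf replicate 4, 1 without 19 hpf replicate 4 and 0 without any other). For the hour steps, 22 of 26 alternatives called none. DESeq2 called 14 from 17 to 18 hpf and 2 from 19 to 20 hpf, the fit without a filter 66, 28 and 28 in the 3 steps, and leaving out single embryos 0 to 1 (1 from 17 to 18 hpf without 20 hpf replicate 2 or without 20 hpf replicate 4). With the counts as deposited the later embryos had on average fewer models detected (-1268, exact permutation p = 0.0436), where thinning gave -315 (exact permutation p = 0.314). The cause was not tested in these cases. Among 1613 refits of 53 named models, 112 had the other sign, from 26 models, and none of these passed. In edgeR 20 against 17 hpf called 0 (348 at an unadjusted p under 0.05) and a linear trend over the 4 hours 0 (344), both chosen after seeing the data, as were the fits without the embryos that stood apart and without the 3 embryos under 400000 counts. The labels give no replicate numbers that pair embryos. With the run of consecutive embryo numbers as a replicate block, also chosen after seeing the data, edgeR called 0 models between the windows (328 at an unadjusted p under 0.05) and 0 in each hour step. Deviations from the hour's mean had a median correlation of 0.00 over the 18 pairs within a run, of which 2 were over 0.1. Over the 55 pairs between runs it was -0.01. These few pairs do not decide if the embryos of a run belong together. The runs, which no source explains, were not taken as pairing. Low counts kept 209 of 305 candidates (68.5%) out of the test, beside 10309 of 16548 models (62.3%).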
